A study of Mus musculus with 12 samples.

Results

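The nuclear-encoded subunits of the respiratory chain and ATP synthase were followed in laser-microdissected small-intestinal crypts of mice with and without a gene-trap allele of Zfp148. Members were taken by gene symbol: names that start with Ndufa, Ndufb, Ndufc, Ndufs, Ndufv, Uqcr, Cox4 to Cox8 or Atp5, together with Sdha, Sdhb, Sdhc, Sdhd, Cyc1 and Cycs. Pseudogenes and the Ndufaf assembly factors were left out. This gave 81 genes of 22180 genes that had a transcript cluster (the array's probe set for 1 transcript) carrying a single symbol. By symbol, 34 members belonged to complex I, 4 to complex II, 8 to complex III, 17 to complex IV and 17 to complex V, and Cycs encodes cytochrome c. For the 10 genes with more than 1 cluster, the brightest was used.

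The study asked whether loss of 1 Zfp148 copy changes gene expression in the crypt, where intestinal tumours of APCMin/+ mice arise. The 6 Zfp148gt/+ mice (Zfp148gt/+APCMin/+) carried 1 gene-trap allele of Zfp148, which encodes a zinc-finger transcription factor that binds GC-rich DNA, and the 6 controls were Zfp148+/+APCMin/+. Both groups carried the APCMin allele, were untreated and were 12 weeks old by the study's methods. The gene trap was present in every cell of the animal and not only in crypt epithelium. Each mouse gave 1 array of crypt-enriched tissue from the proximal small intestine, and mice are named here by the numbers the submitters gave them. The study's methods describe littermate controls, but the labels do not tie mice to litters.

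Complexes I to IV pass electrons from NADH and succinate to oxygen, and complexes I, III and IV pump protons across the inner mitochondrial membrane. Complex V, the ATP synthase, uses the proton gradient to make ATP. Most subunits are encoded in the nucleus, and a small core is encoded in mitochondrial DNA. In the crypt, stem cells and Paneth cells are known to differ in how much they rely on oxidative phosphorylation, and mitochondrial content increases as enterocytes mature towards the villus.

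The promoters of nuclear respiratory genes are known for binding sites of NRF1 and of ETS-family factors. The 250 bases before each transcript start, from RefSeq on GRCm38.p6, were searched on both strands, and 66 of the 81 members had an entry. The NRF1 motif, which has GCGC at either end, was found in 11 members (16.7%) and in 4.2% of 27025 genes, and the ETS letters CCGGAAG in 12 members (18.2%) and in 7.8% of genes. The GC box GGGCGG (37.9% of members and 35.4% of genes) and CCAAT (40.9% and 37.5%) had similar shares in members and in all genes. The C-rich letters CCCCTCCC, of the GC-rich kind that ZFP148 is known to bind, were found in 6 members (9.1%) and in 12.1% of genes. Matches of different motifs could overlap, and a match of letters is a description that does not show that a factor binds. The NRF1 motif is shown, in capitals, in 4 of the genes described below, to give the form in which this family's best known motif occurs:
Sdha: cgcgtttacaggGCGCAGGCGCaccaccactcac (chr13:74350317-74350350, minus strand)
Cox6a1: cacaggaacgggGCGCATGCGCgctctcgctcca (chr5:115349099-115349132, minus strand)
Atp5c1: gcctgagctcccGCGCACGCGCactgagt (chr2:10080433-10080461, minus strand)
Atp5g2: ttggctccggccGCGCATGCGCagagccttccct (chr15:102671068-102671101, minus strand)

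Sdha held 3 such matches within the 250 bases and Cox6a1 held 2. The 150 bases before the start are shown for the 5 members with the smallest p-values described below, with any of the 5 motifs in capitals on either strand (CTTCCGG is CCGGAAG read on the other strand, and ATTGG is CCAAT):
Ndufa7: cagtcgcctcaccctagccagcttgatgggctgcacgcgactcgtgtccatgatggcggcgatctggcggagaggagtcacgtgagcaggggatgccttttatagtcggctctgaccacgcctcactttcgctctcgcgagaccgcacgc (chr17:33824422-33824571, plus strand)
Uqcrh: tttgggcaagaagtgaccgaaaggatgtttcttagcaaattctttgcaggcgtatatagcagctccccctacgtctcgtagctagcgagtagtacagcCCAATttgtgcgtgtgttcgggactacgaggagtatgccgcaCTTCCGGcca (chr4:116075071-116075220, minus strand)
Cox6b1: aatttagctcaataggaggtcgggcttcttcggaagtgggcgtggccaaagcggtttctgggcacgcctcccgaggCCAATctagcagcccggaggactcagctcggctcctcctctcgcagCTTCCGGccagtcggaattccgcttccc (chr7:30626115-30626264, minus strand)
Cox7a1: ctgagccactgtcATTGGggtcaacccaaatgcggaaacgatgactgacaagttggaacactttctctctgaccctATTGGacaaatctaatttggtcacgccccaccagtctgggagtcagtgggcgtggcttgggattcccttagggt (chr7:30184021-30184170, plus strand)
Cox7a2l: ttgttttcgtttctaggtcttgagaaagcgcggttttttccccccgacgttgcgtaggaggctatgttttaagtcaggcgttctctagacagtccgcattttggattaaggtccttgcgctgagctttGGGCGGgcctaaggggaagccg (chr17:83514334-83514483, minus strand)

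Among these, Uqcrh and Cox6b1 held both the ETS letters and CCAAT, Cox7a1 held CCAAT at 2 places, Cox7a2l held a GC box, and the stretch before Ndufa7 held none of the letters searched. The median log2 fold change between genotypes was -0.042 over the 11 members with the NRF1 motif and -0.051 over the 55 without them. It was 0.012 over the 6 members with the C-rich letters and -0.052 over the 60 without them.

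Signals are log2 values of the deposited array table, and differences are Zfp148gt/+ minus control on that scale. Zfp148 itself, the targeted gene, had a log2 signal of 5.01 to 5.95 (median 5.53) in the Zfp148gt/+ mice and 6.06 to 6.88 (median 6.23) in controls. The ranges did not overlap, and the mean ratio was 0.542 (log2 fold change -0.88, 95% interval -1.28 to -0.49, limma p = 0.000335, adjusted p = 0.676 over 33793 clusters, exact permutation p = 0.00217, 2-sided). The exact test over the 924 assignments of 12 arrays can give no p below 0.0022. The arrays correlated with each other at a median r of 0.968 to 0.978. Paneth and goblet cell markers were detected above the median cluster signal of 2.71 in all 9 and all 8 measured genes, by their mean over the 12 mice. All 13 fibroblast and matrix and all 10 smooth muscle markers also passed that level, so passing it does not single out crypt epithelium. The Paneth level was 9.87 ± 0.638 (SD, n = 6) in Zfp148gt/+ mice and 9.40 ± 0.601 in controls, with overlapping ranges. Of its 9 log2 fold changes 7 were positive and 2 negative (median 0.0575), and the largest was 3.62, for Defa22. Villus enterocyte markers had a mean signal of 5.96 ± 0.311 (SD, n = 6) in Zfp148gt/+ mice and 6.04 ± 0.327 in controls. Fibroblast and matrix markers, which are not epithelial, had a lower mean in 12 of 13 genes in Zfp148gt/+ mice (6.74 ± 0.232 against 7.13 ± 0.214). In such bulk tissue, fewer cells of a type and less RNA per cell cannot be told apart.

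No respiratory chain subunit differed between the genotypes after adjustment. Of the 81 members, 0 were called higher and 0 lower by limma at an adjusted p of 0.05, and the smallest adjusted p was 0.725. Over all 33793 clusters the percentage called was 0 in each direction, so the members do not stand apart in this. At an unadjusted p of 0.05, 5 members were lower and 0 were higher in Zfp148gt/+ mice. Over all clusters 2.88% were lower and 3.88% higher at that threshold, and over the 16896 clusters above the median signal, where 78 of the members lay, 5.08% were lower and 2.41% higher. The 5 of 81 members amount to 6.17%.

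The mean was lower in Zfp148gt/+ mice in 57 members (70.4%) and higher in 24, with a median log2 fold change of -0.053. The same share was 45.2% over all clusters (median 0.020) and 58.4% over clusters above the median signal (median -0.039). The respiratory genes are bright on this array: 42 members had a mean signal above 9, a level reached by 846 clusters. Of these 42 members, 32 (76.2%) had a lower mean and the median was -0.065, against 58.7% and -0.020 over the 846 clusters. At an unadjusted p of 0.05, 2 of the 42 (4.76%) were lower and 0 higher, against 2.36% and 1.54% of the 846 clusters. With every array centred on its own median, which lowers all log2 fold changes alike, 71 members (87.7%) had a lower mean, beside 56.3% of all clusters, 67.6% of those above the median signal and 77.9% of the 846. After a second quantile normalization the count went the other way, to 49 members (60.5%), beside 49.8% of clusters above the median signal.

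**Figure D1:**
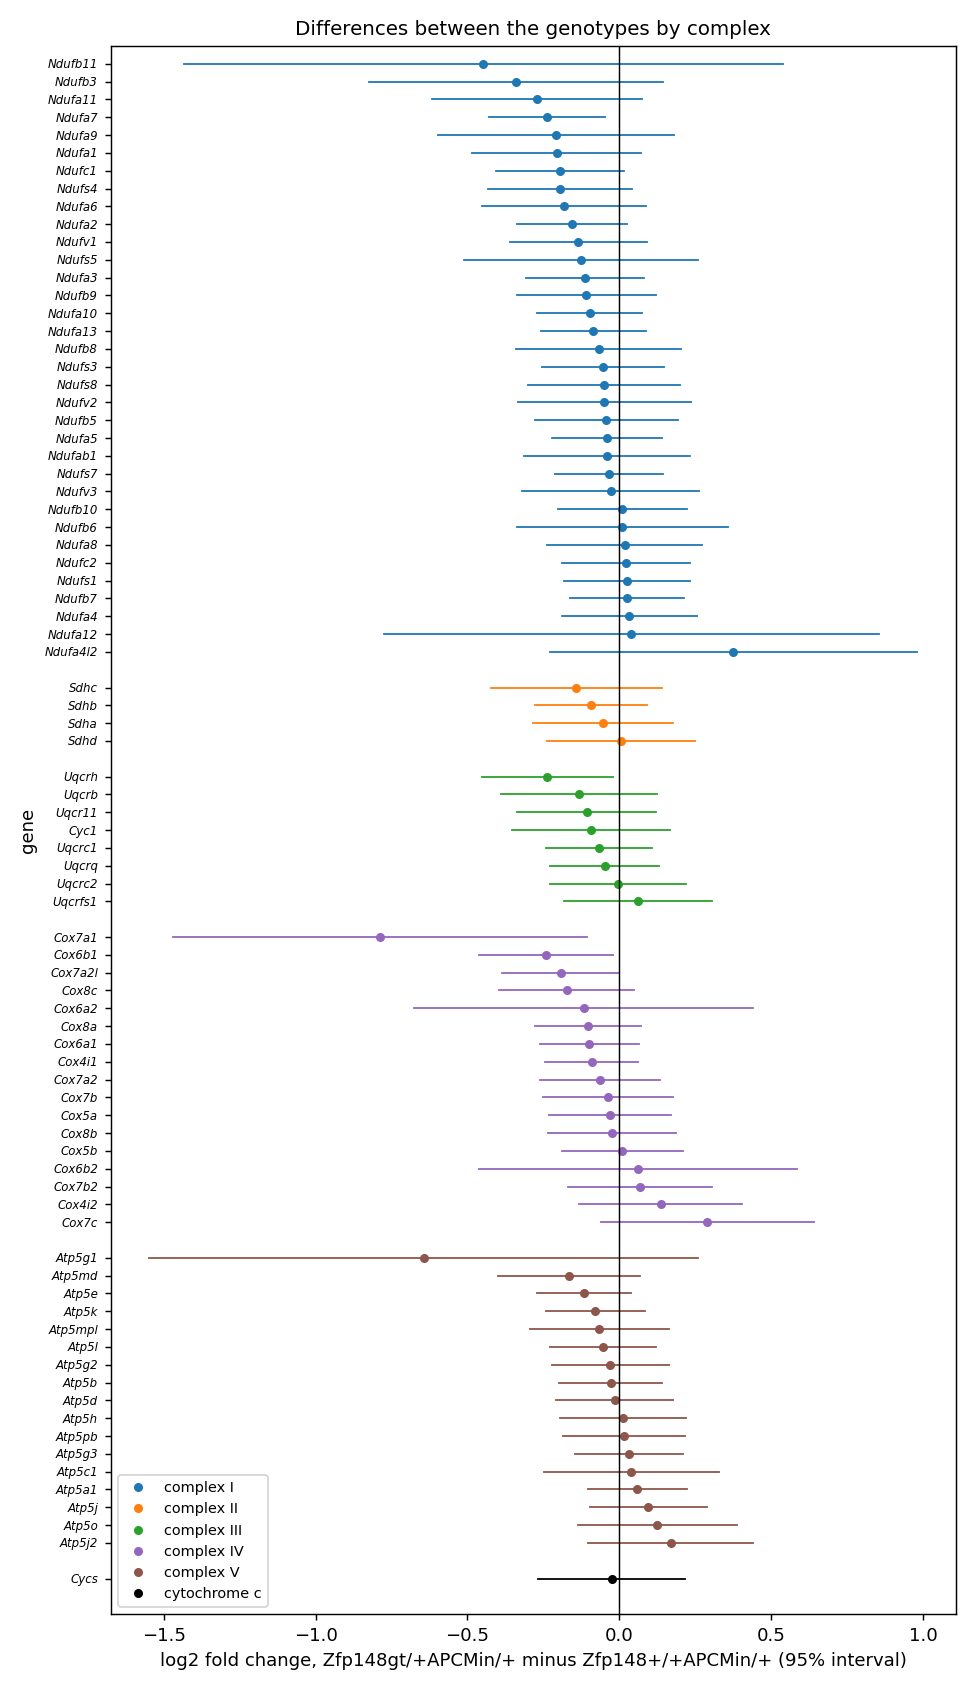
Log2 fold change (x axis, Zfp148gt/+APCMin/+ minus Zfp148+/+APCMin/+) of the 81 genes (y axis), grouped by complex and ordered within it; points are the limma estimates from 6 mice a genotype and lines their 95% intervals. The intervals of 5 genes, Ndufa7, Uqcrh, Cox7a1, Cox6b1 and Cox7a2l, lie below 0, and no interval lies above 0.

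Most differences were small, and those of bright members were measured with fair precision. The median within-genotype SD of the members was 0.164, against 0.243 over all clusters and 0.308 over those above the median signal. For members with a signal above 9 it was 0.136, against 0.166 over all clusters that bright. The 95% interval of the difference lay within 1 log2 unit of 0, which excludes a halving and a doubling of the signal, in 78 members, and within 0.5 in 69. The 78 include Cox7b2, Cox8b and Cox8c, with mean signals of 1.47, 1.97 and 1.66, below the median cluster. Ndufs5 and Atp5o, at 2.72 and 2.76, lay close to that median. For such dim genes a narrow interval of the signal does not exclude a halving of the transcript. Among members with a signal above 9, the largest absolute log2 fold change was 0.27, seen for Ndufa11, a membrane-arm subunit of complex I.

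Complex I, the NADH dehydrogenase, had a lower mean in 25 of 34 members and a median log2 fold change of -0.062. Ndufa7, an accessory subunit, had the smallest p of the complex. Its signal was 7.73 to 8.13 (median 7.92) in Zfp148gt/+ mice and 8.08 to 8.37 (median 8.13) in controls. Only mouse 911 of the Zfp148gt/+ mice reached the control range, the other 5 lay below it, and mouse 892 was the lowest. The log2 fold change was -0.24 (95% interval -0.43 to -0.046, limma p = 0.0189, adjusted p = 0.725, exact permutation p = 0.00866).

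Ndufc1 and Ndufa2, both accessory subunits, came next in complex I. Ndufc1 was 7.22 to 7.65 (median 7.57) in Zfp148gt/+ mice and 7.54 to 7.84 (median 7.70) in controls, with 3 Zfp148gt/+ mice below every control (log2 fold change -0.20, limma adjusted p = 0.741, exact permutation p = 0.0498). Ndufa2 was 9.32 to 9.69 (median 9.64) against 9.60 to 9.85 (median 9.74), with 2 below every control (log2 fold change -0.16, limma adjusted p = 0.752, exact permutation p = 0.0173). Of the catalytic core, Ndufv1, which binds NADH and FMN, had a log2 fold change of -0.14 (limma adjusted p = 0.802), and Ndufs1, the largest iron-sulphur subunit, 0.025 (limma adjusted p = 0.967).

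A few complex I genes varied between mice far more than between genotypes. Ndufa12, an accessory subunit, had 2 levels: 9.35 in control 885, 9.33 in control 895 and 9.29 in Zfp148gt/+ mouse 893, and 10.42 to 11.12 in the other 9 mice. The same 3 mice were the lowest on its second cluster, at 8.45, 8.34 and 8.06. Both genotypes held low mice, and the log2 fold change was 0.039 (95% interval -0.77 to 0.85).

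Ndufb11, a membrane-arm subunit encoded on the X chromosome, was 3.79 in mouse 893 and 4.65 in mouse 891, and 5.57 to 6.89 in the other 10 mice. Both low mice were Zfp148gt/+, and the remaining 4 Zfp148gt/+ mice overlapped with the controls (log2 fold change -0.45, 95% interval -1.43 to 0.54). Ndufa11 was lowest in mouse 893 on both of its clusters, at 9.20 and 3.98. These genes were singled out after their values were seen.

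**Figure D2:**
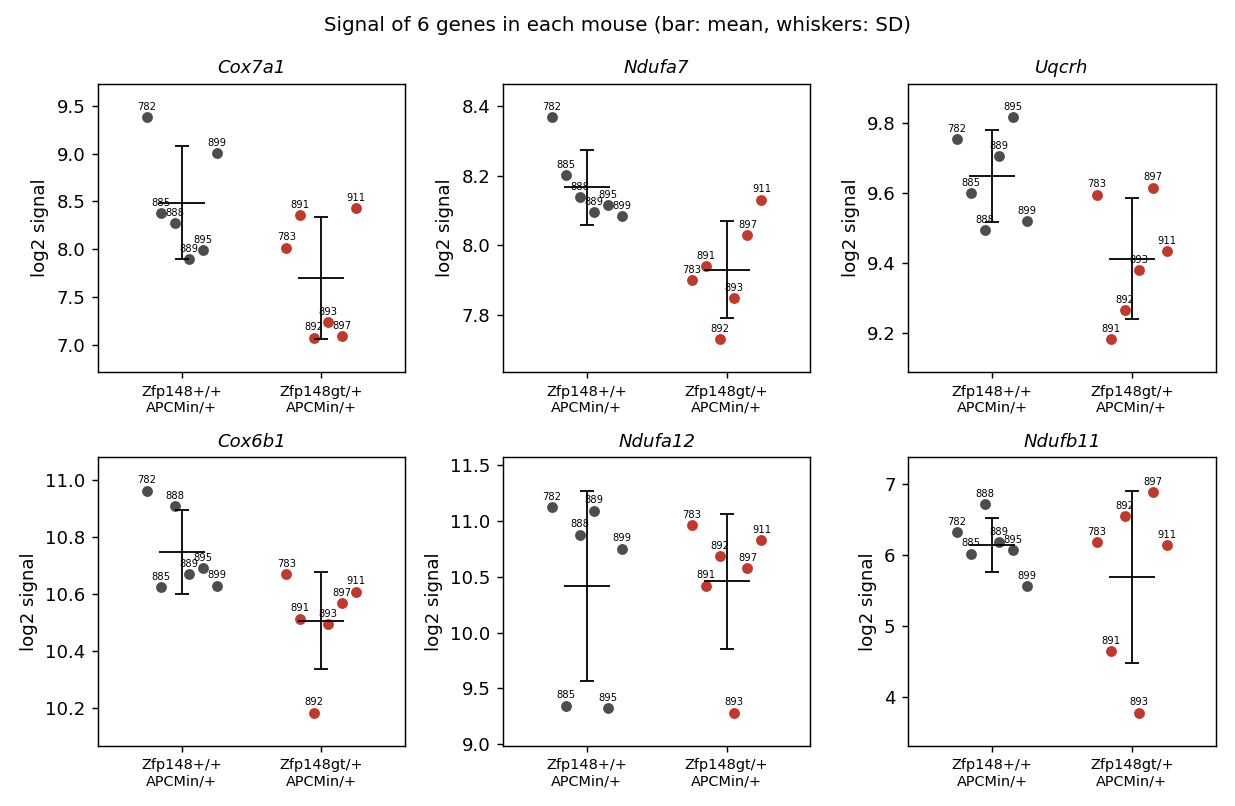
Log2 signal (y axis) of Cox7a1, Ndufa7, Uqcrh, Cox6b1, Ndufa12 and Ndufb11 in each of the 6 control (grey) and 6 Zfp148gt/+ (red) mice, labelled by mouse number; horizontal bars are means and whiskers 1 SD. Both genotypes overlap in every panel, and Ndufa12 shows 3 low mice from both genotypes.

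Complex II, succinate dehydrogenase, is made of 4 subunits and links the TCA cycle to the chain. The median log2 fold change was -0.073, with 3 of the 4 genes lower. Sdha, the FAD-binding subunit, differed by -0.053 (95% interval -0.28 to 0.18) and Sdhb, the iron-sulphur subunit, by -0.094 (95% interval -0.28 to 0.092). The membrane anchors were at -0.14 for Sdhc (95% interval -0.42 to 0.14, limma adjusted p = 0.833) and at 0.0044 for Sdhd.

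Complex III, the cytochrome bc1 complex, had the lowest median of the complexes (-0.081), with 7 of 8 genes lower. Uqcrh, the hinge protein that contacts cytochrome c1, had the smallest p. Its signal was 9.18 to 9.62 (median 9.41) in Zfp148gt/+ mice and 9.49 to 9.82 (median 9.65) in controls. Mice 783 and 897 lay within the control range and the other 4 Zfp148gt/+ mice below it. The log2 fold change was -0.24 (95% interval -0.45 to -0.022, limma p = 0.0334, adjusted p = 0.725, exact permutation p = 0.0281). Of the redox-active subunits, Cyc1 (cytochrome c1) differed by -0.094 (95% interval -0.35 to 0.17) and Uqcrfs1 (the Rieske protein) by 0.062 (95% interval -0.18 to 0.30). Uqcrc1, a core protein, differed by -0.069, Uqcrb by -0.13 and Uqcr11 by -0.11, all with limma adjusted p-values of 0.847 or above except Uqcrb at 0.832.

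Complex IV, cytochrome c oxidase, held 3 of the 5 members with an unadjusted p under 0.05 and had a median of -0.064, with 12 of 17 genes lower. Cox7a1, the subunit form known from heart and skeletal muscle, showed the largest log2 difference of all members. Its signal in the Zfp148gt/+ mice was 8.01 (783), 8.36 (891), 7.07 (892), 7.24 (893), 7.09 (897) and 8.42 (911), and in controls 9.38 (782), 8.38 (885), 8.27 (888), 7.89 (889), 7.99 (895) and 9.01 (899). Mice 892, 893 and 897 lay below every control, and the other 3 lay among the controls. The mean ratio was 0.579 (log2 fold change -0.79, 95% interval -1.47 to -0.11, limma p = 0.0266, adjusted p = 0.725), and the exact permutation p was 0.0649.

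Beside Cox7a1, the smooth muscle markers of the same tissue had a lower mean in 9 of 10 genes (5.82 ± 0.134 in Zfp148gt/+ mice, 6.08 ± 0.395 in controls). Their part in the Cox7a1 difference was not tested beyond a fit with the fibroblast and smooth muscle level as a covariate, in which the log2 fold change was -0.68. With the array's interquartile range in the fit it was -0.089, and without mice 892 and 893 it was -0.52.

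Cox6b1, the widely expressed form of a subunit that joins the monomers of the complex IV dimer, was 10.18 to 10.67 (median 10.54) in Zfp148gt/+ mice and 10.62 to 10.96 (median 10.68) in controls. Of the Zfp148gt/+ mice, 5 lay below every control and mouse 783 within the control range. The log2 fold change was -0.24 (95% interval -0.46 to -0.021, limma p = 0.034, adjusted p = 0.725, exact permutation p = 0.00866). Cox7a2l, known for joining complexes III and IV into supercomplexes, was 7.07 to 7.37 (median 7.28) against 7.33 to 7.67 (median 7.44), with 3 Zfp148gt/+ mice below every control. Its log2 fold change was -0.19 (95% interval -0.39 to -0.0016, limma p = 0.0484, adjusted p = 0.736, exact permutation p = 0.0346).

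Several complex IV subunits exist as a widely expressed form and a form restricted to particular tissues, and the genotypes overlapped for every form measured. The widely expressed forms were at -0.24 for Cox6b1 (above), -0.092 for Cox4i1, -0.099 for Cox6a1, -0.064 for Cox7a2, -0.037 for Cox7b and -0.10 for Cox8a (log2 fold changes). The restricted forms were at -0.79 for Cox7a1 (above), 0.14 for Cox4i2, -0.12 for Cox6a2, 0.061 for Cox6b2, 0.066 for Cox7b2, -0.025 for Cox8b and -0.17 for Cox8c. Cox7b2, Cox8b and Cox8c had mean signals of 1.44 to 1.98 in either genotype, below the median cluster. Cox4i1 varied least around its means, 11.05 ± 0.0709 and 11.14 ± 0.0576 (SD, n = 6), and although 4 Zfp148gt/+ mice lay below every control (exact permutation p = 0.0195), its limma p was 0.217. Cox5a, a matrix-facing subunit, differed by -0.032.

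Ndufa4, now known as a complex IV subunit, and its hypoxia-linked relative Ndufa4l2 carry complex I symbols. Ndufa4 differed by 0.033 (95% interval -0.19 to 0.26). Ndufa4l2 had the highest log2 fold change of the members, 0.37 (95% interval -0.23 to 0.98), at a low signal of 2.41 to 3.999 in Zfp148gt/+ mice and 2.19 to 3.40 in controls, so the genotypes overlapped widely.

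In complex V, the ATP synthase, 9 of 17 members were lower (52.9%) and 8 higher, with a median of -0.016. The higher members include dim ones: Atp5c1, Atp5j, Atp5j2 and Atp5o had mean signals of 4.09, 6.17, 3.08 and 2.76. Of the lower members only Atp5g1, at 2.75, had a mean signal below 9. The near-even split thus rests in part on dim genes. Among clusters above the median signal 58.4% were lower. After centring each array 13 of the 17 were lower (76.5%, beside 67.6%), and with the array's interquartile range in the fit 4 were (23.5%, beside 48.6%). The catalytic head differed by 0.058 for Atp5a1 (95% interval -0.11 to 0.22) and by -0.029 for Atp5b (95% interval -0.20 to 0.14), both at signals near 11. Atp5c1, the central stalk, was at 0.039 (95% interval -0.25 to 0.33), at a far lower mean signal of 4.09. The smallest p in the complex belonged to Atp5e, a subunit of the central stalk, at -0.12 (95% interval -0.27 to 0.039, limma p = 0.13, adjusted p = 0.77, exact permutation p = 0.0238), followed by Atp5md at -0.17 and Atp5g1.

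The membrane rotor, the c ring, is built from 1 protein that 3 genes encode. Atp5g2 and Atp5g3 differed by -0.030 and 0.031. Atp5g1 was at -0.64 (95% interval -1.55 to 0.26, limma adjusted p = 0.778), with controls 782 and 889 at 4.999 and 3.74 and the other 10 mice between 2.04 and 2.92. Without control 782 the log2 fold change was -0.26.

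Cycs, the mobile electron carrier between complexes III and IV, was at -0.026 on its brightest cluster (95% interval -0.27 to 0.22). Its 5 clusters differed in sign, from -0.22 to 0.061, and 2 of them held identical values.

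**Figure D3:**
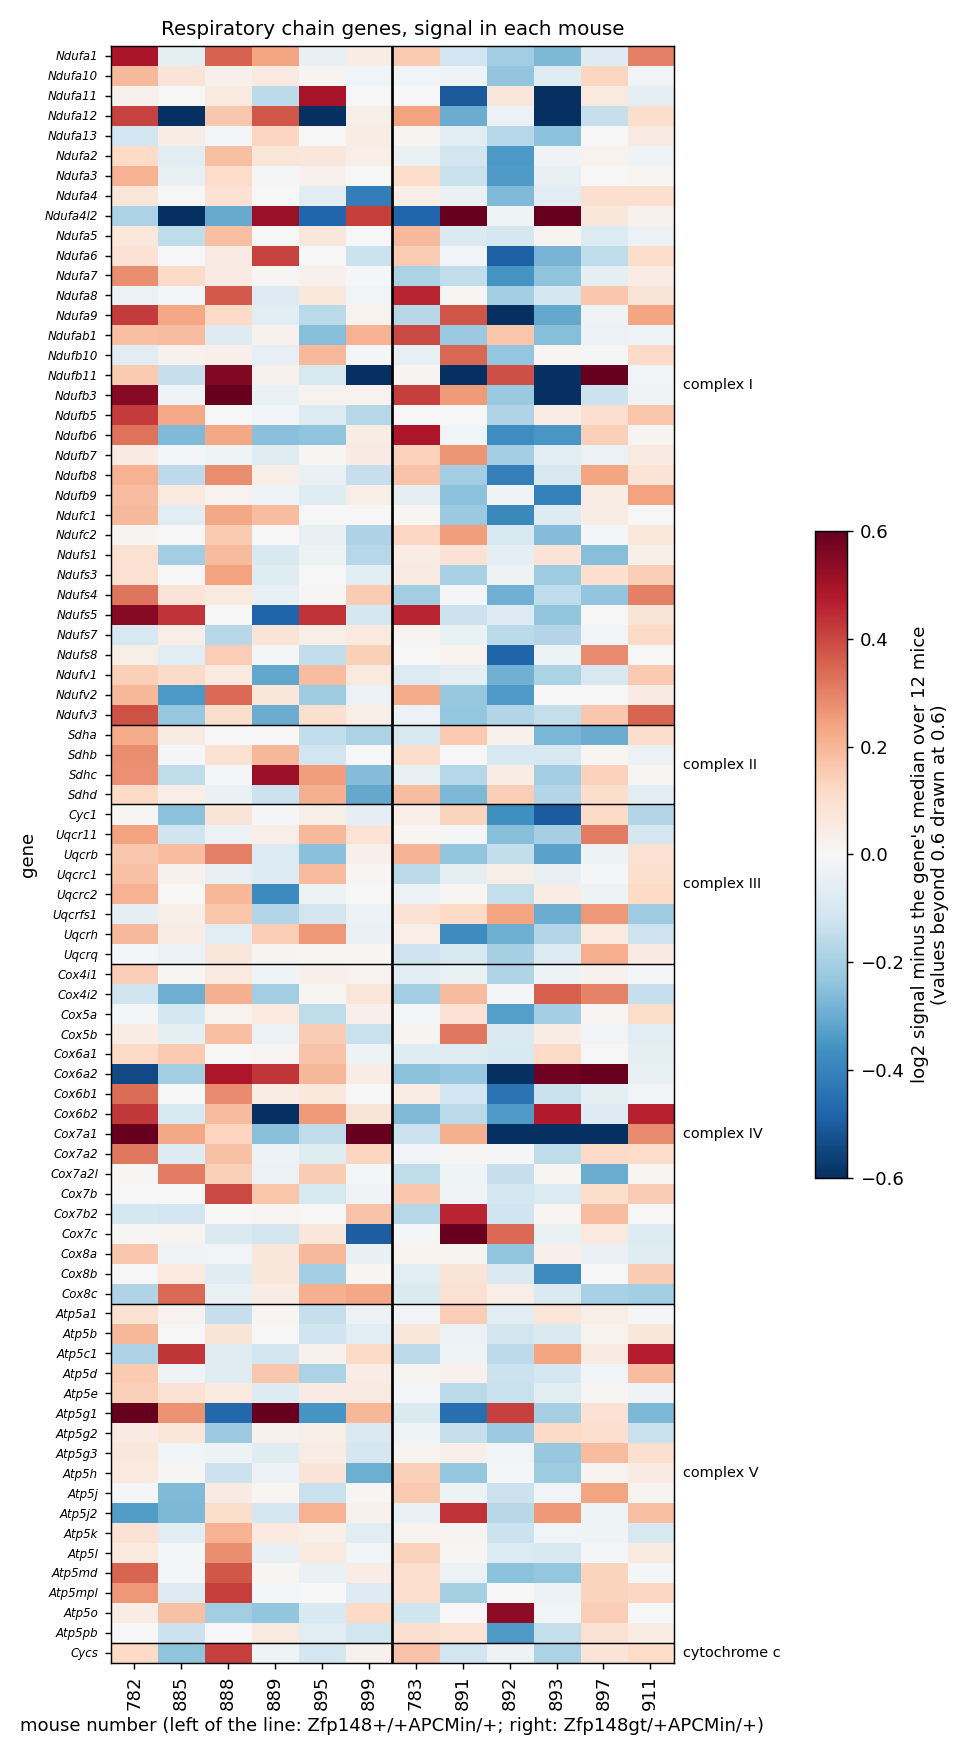
Log2 signal of each of the 81 genes (rows, grouped by complex) in each mouse (columns, controls left and Zfp148gt/+ right of the line), as the difference from that gene's median over 12 mice; colours stop at 0.6 on either side. Mice 892 and 893 are blue in most rows and controls 782 and 888 red in most rows, while the remaining mice are mixed.

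Across mice, the members tended to be low or high in the same animals. Per mouse, 40.5 of the 81 members would lie below their own 12-mouse median on average. Mouse 892 had 69 members below it and mouse 893 had 63, both Zfp148gt/+, and controls 782 and 888 had 17 and 24. The other 8 mice had 32 to 50, with both genotypes mixed. Mouse 892 was the lowest of the 12 in 28 members and mouse 893 in 18, and 51 members lay below their median in both. Control 782 was the highest in 20 and control 888 in 14.

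The same mice differed at other bright genes, to a lesser degree. Of the 846 clusters with a signal above 9, 65.6% lay below their median in mouse 892 and 65.1% in mouse 893, against 85.2% and 77.8% of the members. In controls 782 and 888 these percentages were 31.2 and 39.2, against 21.0 and 29.6 of the members. In mouse 892, 31 of 34 genes of complex I, 1 of 4 of complex II, 6 of 8 of complex III and 15 of 17 each of complexes IV and V lay below their median. In mouse 893 the counts were 29, 4, 7, 9 and 13. The interquartile range of array 892 was 2.69 and of array 893 was 2.71, near the 2.71 of mouse 891, whereas the other arrays had 2.76 to 3.005. By genotype, the range ran from 2.69 to 2.93 in Zfp148gt/+ mice and from 2.80 to 3.005 in controls. It thus partly follows genotype, and a fit with it as a covariate cannot fully tell array spread and genotype apart. This holds for every fit with that range given here. The part of array spread in the members' levels was not tested beyond that fit.

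**Figure D4:**
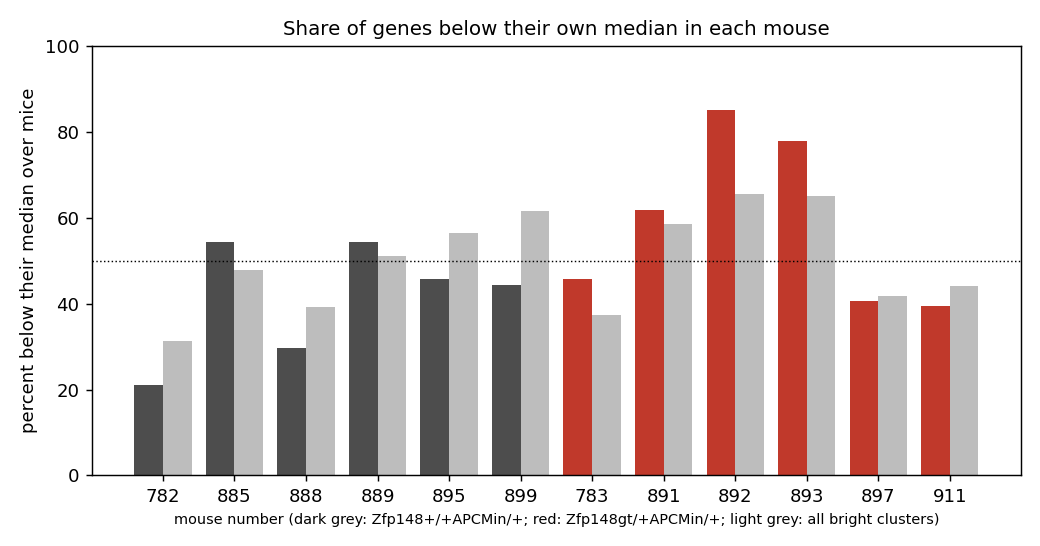
Percent of genes below their own 12-mouse median (y axis) in each mouse (x axis), for the 81 respiratory chain genes (dark grey controls, red Zfp148gt/+) and for the 846 clusters with a mean log2 signal above 9 (light grey). The tallest bars are those of mice 892 and 893, at 85.2% and 77.8%, and the shortest that of control 782, at 21.0%.

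The mice at either end also differed in the signal of the Y-linked genes Ddx3y, Eif2s3y, Kdm5d and Uty. Mice 892 and 893 had a mean log2 signal of 2.16 over these genes, against 4.49 to 5.24 in the other 4 Zfp148gt/+ mice, and controls 895 and 899 had 2.24 and 2.15, against 4.90 to 5.52 in the other 4 controls. Mice 892 and 893 are thus the only Zfp148gt/+ mice without clear Y-linked signal. Within the 4 mice of low Y-linked signal, 2 per genotype, 68 of 81 members had a lower mean in Zfp148gt/+ (median log2 fold change -0.13). Beside this, 57.8% of clusters above the median signal did. Within the 8 mice of high Y-linked signal, 50 of 81 did (median -0.025), beside 54.5%. The Zfp148gt/+ mice of the low stratum are 892 and 893, already seen to hold the lowest members. Controls 895 and 899 had 37 and 36 of the 81 members below their median. A larger tilt in the low stratum than in the high one was thus set by mice 892 and 893 and is no finding about Y-linked signal. The difference between these strata was not tested, and with the Y-linked level in the fit of all 12 mice 57 members were lower (median -0.046).

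The size of the lower tilt depended on mice at both ends. Mice 892 and 893 were left out together after their values were seen, and because they held the lowest members the tilt had to shrink. Without them 41 of 81 members had a lower mean and 40 a higher one (median -0.0062), beside 54.8% of clusters above the median signal, and no Zfp148gt/+ mouse of low Y-linked signal remained. Without controls 782 and 888, chosen in the same way as the highest, 45 were lower and 36 higher (median -0.027), beside 55.8%. With a single mouse left out, 50 members were lower without mouse 892 and 54 without mouse 893, control 782 or control 888.

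The 5 members with an unadjusted p under 0.05 were as dependent on single mice. There were 0 without both 892 and 893, beside 4.41% of clusters above the median signal. Without both 782 and 888 there was 1 (1.23%), beside 3.84%. Leaving out mouse 892 alone left 1 (1.23%, beside 4.65% of clusters above the median signal), and mouse 893 alone left 2 (2.47%, beside 4.81%). The number was 3 (3.70%) without control 782, beside 4.21% of clusters above the median signal, and 3 (3.70%) without control 888, beside 4.68%. It was also 3 without control 895 or mouse 891, where the share of clusters was not taken. With the array's interquartile range in the fit the tilt turned, with 54 members higher, 27 lower (33.3%) and a median of 0.047. In that fit 48.6% of clusters above the median signal were lower. Because the range partly follows genotype, the turn cannot be told apart from a removal of part of the genotype difference.

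Genes around the respiratory chain were described from lists, and none had a member called, as over all clusters. Beside the shares below, 58.4% of clusters above the median signal had a lower mean in the main fit. That share was 54.8% without mice 892 and 893, 49.8% after a second quantile normalization and 48.6% with the array's interquartile range in the fit. Of those clusters, 5.08% were lower at an unadjusted p under 0.05 in the main fit and 4.41% without mice 892 and 893. Of 14 assembly factors of complex I, proteins that help build the complex and are not part of it, 12 (85.7%) had a lower mean. The median log2 fold change was -0.23. Timmdc1 was at -0.35 (95% interval -0.62 to -0.084) and Ndufaf5 at -0.34 (95% interval -0.62 to -0.050), both with a limma adjusted p of 0.725. Tmem126b (-0.48) and Ndufaf7 (-0.59), named after their values were seen, also had an unadjusted p under 0.05, which made 4 of the 14 (28.6%). Without mice 892 and 893, 10 of the 14 were lower, the median was -0.23 and 1 had an unadjusted p under 0.05. After a second quantile normalization 11 were lower (median -0.16), and with the array range as a covariate 8 were (median -0.043).

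Of 30 assembly factors of complexes II to V, 23 (76.7%) had a lower mean (median -0.072). They were led by Bcs1l, the chaperone that inserts the Rieske protein, at -0.44 and Uqcc2 at -0.33. The count was 13 of 30 without mice 892 and 893, 15 after a second quantile normalization and 12 with the array range in the fit (median 0.063). Among 18 regulators of mitochondrial biogenesis, 10 were lower (55.6%, median -0.086), a share below that of clusters above the median signal. The median was -0.048 without mouse 892, -0.046 without control 782, -0.13 without mouse 893 and -0.025 after a second quantile normalization. In that list Pprc1, a coactivator of the PGC-1 family, was at -0.47 (95% interval -0.80 to -0.14) and Nrf1, whose product binds the NRF1 motif shown above, at -0.37 (95% interval -0.69 to -0.048), both with a limma adjusted p of 0.725.

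The 10 measured subunits encoded in mitochondrial DNA all had a higher mean in Zfp148gt/+ mice, by 0.0032 to 0.082, but after centring each array 6 were higher and 4 lower, and after a second quantile normalization 5 and 5. Their mean level was 11.96 ± 0.0263 in Zfp148gt/+ mice and 11.91 ± 0.0753 in controls (SD, n = 6), ranges of 11.92 to 11.996 and 11.83 to 12.03 that overlap. COX1 and COX3, 2 catalytic-core subunits of complex IV, were highest at 0.082 and 0.076. None had an unadjusted limma p under 0.05. The exact permutation p was 0.0433 for COX1 and 0.0325 for COX3, and above 0.05 for the others.

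Of 16 TCA cycle genes, 11 (68.8%) were lower (median -0.048), beside 58.4% of clusters above the median signal. Idh3a, a catalytic subunit of isocitrate dehydrogenase, was at -0.44 and Dlst, of the 2-oxoglutarate dehydrogenase complex, at 0.30. Without mice 892 and 893, 6 of the 16 were lower, after a second quantile normalization 8 (median 0.0070), and with the array range in the fit 2 (median 0.11). Of 13 carriers and channels that exchange ATP, phosphate and metabolites, 8 were lower (61.5%, median -0.039), a share near that 58.4%. Slc25a13 was at -0.56 and Vdac3 at -0.15. The count was 6 without mouse 892 alone (median 0.0035) and 6 without mice 892 and 893 (median 0.0021). Of 12 glycolysis genes, 10 were lower (83.3%, median -0.14), with Tpi1 at -0.20. Pfkm had a mean signal of 2.13 in Zfp148gt/+ mice and 2.44 in controls and was the 1 gene of the list below the median cluster. Without mice 892 and 893 the count was 8 (66.7%), beside 54.8% of clusters above the median signal.

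**Figure D5:**
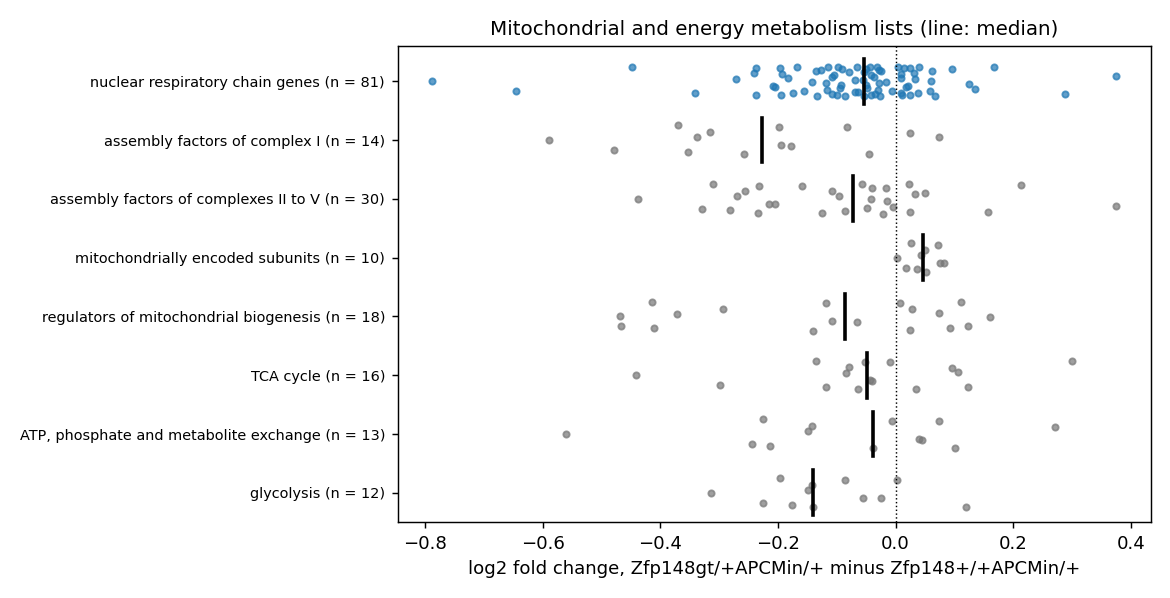
Log2 fold change (x axis, Zfp148gt/+APCMin/+ minus Zfp148+/+APCMin/+) of single genes (points) in the respiratory chain and in 7 related lists (y axis, with the number of genes measured); vertical bars are medians. Medians run from -0.23 for assembly factors of complex I to 0.047 for the mitochondrially encoded subunits, whose 10 points lie in a narrow band above 0.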

How the data were processed

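RNA from laser-microdissected crypts of 12 mice (6 per genotype) was hybridised to Affymetrix whole-transcript arrays, 1 array per mouse. The authors normalised the arrays by RMA in Expression Console, and the deposited values are log2 signals of 33793 transcript clusters (0.85 to 13.24), the base being taken from their range. Gene names came from the platform annotation: 23521 clusters carried 1 symbol, 1820 several and 8452 none. All 81 members matched the RefSeq gene table. Array number limits the precision; values carry no read depth.

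Genotypes came from the labels. limma 3.58.1 (lmFit and eBayes, no covariate, no filter) in R 4.3.3 was run on all clusters, as the study's methods name, with Benjamini-Hochberg adjustment over all of them, and tested on simulated data. Single members also received a 2-sided exact permutation test. It was not run over all clusters, so its unadjusted p-values have no background share beside them. Named genes were Zfp148, members with an unadjusted p under 0.05, the 3 smallest p-values per complex, core subunits, tissue isoforms and their partners, the c-ring genes, members whose clusters differed in sign and the 2 smallest p-values per list, and genes with large spread were added after their values were seen. Members and lists were chosen with earlier results of these data known, and the symbols of the mitochondrially encoded list were changed to the array's own names once the table was open. P-values set the difference between the genotypes against the spread between these mice. The alternatives were centring or quantile normalization of the arrays, a signal filter, other variance models, array weights, the mean of all clusters of a gene, covariates for array spread and marker levels, leaving out mice, and the mice of low or high Y-linked signal alone (mean log2 signal of 4 genes below or above 3).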

Additional observations from a re-analysis of the deposited data

Results flagged for a closer look

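Within the 164 groups of 6 arrays looked at (81 members and Zfp148, in each genotype), 11 values stood apart from the other 5 by Dixon's criterion, which chance alone meets in about 1 of 20 groups. In Zfp148gt/+ mice, mouse 892 was the lowest for Ndufa2 (9.32, nearest other mouse 9.56) and for Cox6b1 (10.18, nearest 10.49), mouse 893 was the lowest for Ndufa12 (9.29, nearest 10.42), and mouse 891 was the highest for Cox5b (10.39, nearest 10.12). In controls, mouse 888 was the highest for Ndufa8 (9.89, nearest 9.58) and Atp5l (12.05, nearest 11.83), and mouse 895 the highest for Ndufa11 (10.47, nearest 10.02). Control 899 was the lowest for Ndufa4 (10.996, nearest 11.35) and Cox7c (3.51, nearest 3.90), and control 889 the lowest for Ndufv1 (7.55, nearest 7.92) and Cox6b2 (3.90, nearest 4.91). All values are log2 signals.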

How the results depend on the processing

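No member was called, in either direction, under any of the 29 alternatives run, and the smallest adjusted p of a member under any of them was 0.509. The number of members with an unadjusted p under 0.05 and a lower mean was 5 (6.17%) in the main fit, beside 5.08% of clusters above the median signal. In brackets below is that share of clusters in the same fit. The number became 8, or 9.88%, after centring each array (7.23%) and 0 with the array's interquartile range in the fit (2.04%). In a fit of the clusters above the median signal alone it was 2, and the share of clusters was not taken. It was 0 without mice 892 and 893 (4.41%) and 1 without controls 782 and 888 (3.84%). In the mice of low Y-linked signal alone it was 1 (6.55%) and in those of high signal 0 (3.82%). These last 4 settings were chosen after seeing the data. With 1 mouse left out the number ran from 1, as without mouse 892 (4.65%), to 7, for which the share of clusters was not taken. Those with a higher mean (0) became 2 with the interquartile range (2.47%, beside 1.94% of clusters above the median signal). They became 1 with the fibroblast and smooth muscle level as a covariate, where the share of clusters was not taken. With the array's interquartile range in the fit the median log2 fold change turned to 0.047 over all members, 0.060 in complex I, 0.015 in complex III and 0.067 in complex V, and without mice 892 and 893 that of complex V was 0.039. In the mice of low Y-linked signal alone, where 892 and 893 are the only Zfp148gt/+ mice, it was -0.13 over all members. There it was -0.21 in complex I and -0.13 in complex IV.

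Of 40 single members followed, 19 kept their sign and 21 changed it under 1 or more alternatives. The cause was not tested. With the array's interquartile range in the fit the log2 fold change became -0.16 for Ndufa4l2, 0.13 for Ndufv1, 0.024 for Sdha, 0.10 for Uqcrb, 0.014 for Uqcrc1, 0.063 for Cox5a, 0.072 for Cox7a2, 0.052 for Cox7b, -0.025 for Cox7b2, 0.046 for Cox8b, 0.080 for Atp5b, 0.012 for Atp5md and 0.14 for Cycs. Without mice 892 and 893 it became 0.061 for Cyc1, 0.073 for Cox5a, 0.027 for Cox7b, 0.066 for Cox8b, 0.014 for Atp5b and 0.031 for Cycs. After centring it became -0.011 for Ndufa4, -0.019 for Ndufs1, -0.0045 for Atp5c1 and -0.012 for Atp5g3, with the fibroblast and smooth muscle covariate -0.055 for Ndufa4 and -0.041 for Cox7b2, and after a second quantile normalization 0.010 for Cycs.

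With 1 mouse left out, signs also changed within the ranges of Ndufa4 (-0.040 to 0.081), Ndufs1 (-0.010 to 0.074), Cox5a (-0.065 to 0.023), Cox6a2 (-0.25 to 0.064), Cox6b2 (-0.15 to 0.15), Cox7b (-0.071 to 0.027), Cox7b2 (-0.013 to 0.11), Cox8b (-0.066 to 0.040), Atp5b (-0.056 to 0.0079), Atp5c1 (-0.042 to 0.12), Atp5g2 (-0.070 to 0.0037), Atp5g3 (-0.0028 to 0.080) and Cycs (-0.081 to 0.050). No paired analysis was possible because the genotypes share no mouse numbers and the litters behind the littermate controls are not given.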

Other observations

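A further 10 clusters carried the symbol of a respiratory chain gene together with another symbol and were kept out of the members. All 10 had a lower mean in Zfp148gt/+ mice, by -0.25 to -0.011 on the log2 scale, where 58.4% of clusters above the median signal did. The clusters are not independent: Cox6c and Ndufs6 each appear 2 times, and Ndufs1, Uqcrb and Ndufs5 are also members. The cluster shared by Ndufb2, a complex I subunit, and Adck2 had a log2 fold change of -0.25 (95% interval -0.48 to -0.022, limma adjusted p = 0.725), with a mean of 7.70 ± 0.151 in Zfp148gt/+ mice and 7.95 ± 0.192 in controls (SD, n = 6). The brighter Cox6c cluster, shared with Gm6265, was at -0.12, and the brighter Ndufs6 cluster, shared with Ndufs6b, at -0.012.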
